A study of Gallus gallus with 8 samples.

Results

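Solute carriers are membrane proteins that move sugars, ions, metals, vitamins, organic anions and nucleosides into and out of cells and organelles. The genes described here are those whose symbol starts with SLC and a digit, or with SLCO, leaving out the families of amino acid transporters (SLC1A, SLC3A, SLC6A, SLC7A, SLC36A, SLC38A, SLC43A), the mitochondrial SLC25A carriers and SLC11A1. The rule uses the symbol and no measured value, and it gives 159 of the 13427 genes in the expression table. The symbols SLC4A1AP, SLC9A3R1, SLC9A3R2 and SLC2A4RG meet the same rule but belong to proteins that bind or regulate carriers, not to carriers.

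The samples were livers of 21-day-old broilers. One group had received lipopolysaccharide (LPS) of Escherichia coli 055:B5, a bacterial cell wall lipid that activates innate immunity, into the peritoneum at 1 mg/kg body weight 2 h before the liver was taken. The other group had received the same volume of phosphate-buffered saline. Fragments of polyadenylated RNA were sequenced as such (input) and once enriched by immunoprecipitation (IP) with an antibody against N6-methyladenosine (m6A), a methyl mark on internal adenosines of mRNA, giving 8 libraries in 4 groups of 2. The labels name no strain or sex and do not say whether each library is 1 bird, a pool or a repeat of the same RNA, so the p-values here reflect only how much these libraries vary, which may be technical.

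Hepatocytes take up and release solutes across the membrane that faces the blood and secrete others into bile. GLUT2 (SLC2A2) carries glucose in both directions, organic anion transporting polypeptides of the SLCO families take up bile acids, hormones and drugs, and ferroportin (SLC40A1) is the known exporter of cellular iron. Zinc enters the cytosol through ZIP proteins (SLC39) and leaves it through ZnT proteins (SLC30). Inflammation is known to change the handling of iron and zinc by the liver.

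Expression is given in FPKM, fragments per kilobase of transcript scaled to library size, as the authors computed it for the 4 input libraries. Differences are those of log2(FPKM + 1), LPS minus control, and a gene was called when its limma p-value, adjusted by Benjamini and Hochberg over the 9484 genes that averaged 1 FPKM or more, was under 0.05 (two-sided). The absolute depth is unknown. The steps between low FPKM values gave rough depths of 0.818 to 0.891 relative to control library 1. Each estimate rests on only 10 to 12 of the 214 to 226 genes low in both libraries. The median log2 difference of all tested genes was −0.34, so each value is to be read against that shift, and counts are also given with the libraries scaled to equal medians, where it was −0.07. The hepatocyte markers albumin (ALB, 16540 to 23324 FPKM over the 4 libraries) and apolipoprotein A1 (APOA1, 23589 to 27320 FPKM) were abundant in every library and had no call. Of the other 4 hepatocyte markers, AHSG (log2 difference −1.24) and TTR (−1.14) fell, FGB rose (1.28) and APOB did not pass. All 5 macrophage markers in the table (CSF1R, MARCO, C1QA, C1QB and LY86) fell, with summed levels of 488 and 523 FPKM in the control and 224 and 215 FPKM in the LPS libraries. Among markers of other cells, 2 of 5 tested for endothelium fell (CDH5, −0.97, and KDR, −0.99) and 3 had no call. Of 5 tested for stellate cells and fibroblasts only LUM was called (−1.002), and of 6 for T and NK cells only CD247 (−0.66). Of 3 bile duct markers, SOX9 fell (−1.01), EPCAM rose (1.38) and KRT19 did not pass. As deposited, 31.4% of all tested genes were called lower. At equal medians TTR (limma adjusted p = 0.114), CDH5 (0.0542), CD247 (0.200) and SOX9 (0.0998) had no call. The 5 macrophage markers, AHSG, KDR and LUM stayed lower. CD3D (0.0420), PDGFRB (0.0237) and the heterophil marker CSF3R (0.0468) were then called higher. None of 9 erythrocyte marker names was matched, and the matched pancreas and muscle markers were at most 0.104 FPKM in any library. In bulk liver, fewer cells of a type and less RNA per cell cannot be told apart.

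After LPS, 17 of the 112 solute carrier genes tested rose and 37 fell, while 58 did not pass. Over all tested genes 10.7% were called higher, 31.4% lower and 42.1% either way, against 15.2%, 33.0% and 48.2% of the solute carrier genes. At equal medians 19 were higher and 26 lower, where 14.1% of all genes were higher and 16.8% lower. Their median log2 difference was −0.35, against −0.34 for all tested genes. Both LPS libraries lay above both control libraries for 28 of the 112 genes and below both for 63, where 18.4% of all tested genes lay above and 55.8% below. Among changes of at least 2-fold on this scale, 10 were higher and 23 lower (7.11% and 14.4% of all genes). Fits with 1 library left out assume that the lone library varies like the other group, so a call kept in them is not a check of robustness. In such fits the log2 differences of SLC2A1, SLC2A13, SLC29A3, SLC37A3, SLC9A7 and SLCO1B3 moved by a ratio of over 1.5.

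**Figure D1:**
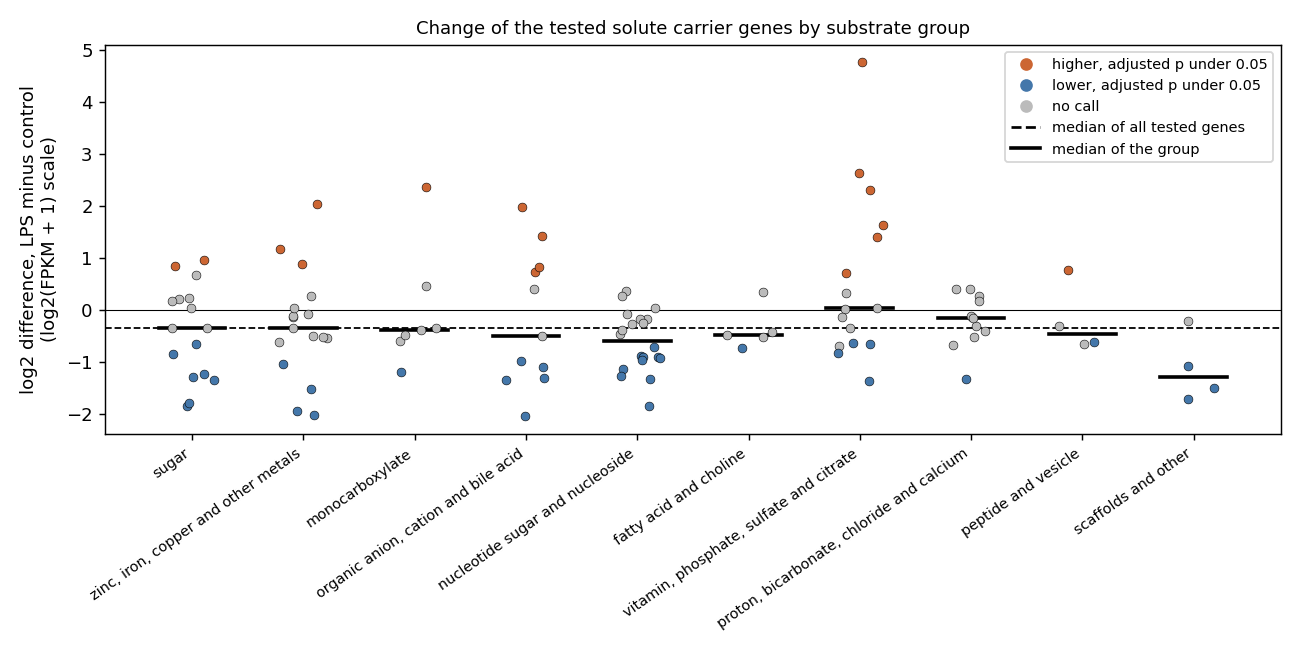
Log2 difference between LPS and control liver for each of the 112 tested genes, by substrate group. Orange and blue points passed the test, short bars are group medians and the dashed line is the median of all tested genes (−0.34); SLC46A2 stands highest at 4.76, and no nucleotide sugar or nucleoside carrier was called higher.

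Among the sugar carriers, grouped here by family symbol, 7 of 16 tested fell (43.8%, against 31.4% of all tested genes). On the log2(FPKM + 1) scale, which shrinks the changes of low genes, GLUT2 (−1.84) and SLC37A2 (−1.78) fell the most. SLC2A2, the main glucose transporter of hepatocytes, was at 132 and 152 FPKM in control and at 31.3 and 48.0 FPKM in LPS liver. The groups were well apart, and the gene fell by 1.84 on the log2 scale (SE 0.23, limma adjusted p = 7.91e-04). SLC2A9, a urate transporter, was at 26.4 and 24.2 FPKM in control and 9.71 and 9.97 FPKM in LPS liver, with the pairs close together and no overlap (log2 difference −1.28, adjusted p = 0.00128). SLC37A2, which exchanges glucose 6-phosphate for phosphate and is known from mouse macrophages, went from 4.66 and 6.66 to 0.850 and 0.975 FPKM (−1.78, adjusted p = 0.00103). With both LPS libraries under 1 FPKM, SLC37A2 passed the filter only through the control libraries, so its being called lower is in part set by the filter. Both sodium-coupled carriers of myo-inositol that were tested fell, SLC5A3 by 1.34 and SLC5A11 by 1.22 on the log2 scale.

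Rises among the sugar carriers were smaller. SLC2A6 (GLUT6), an intracellular relative of the glucose transporters, was at 8.53 and 8.06 FPKM in control and 17.7 and 16.3 FPKM in LPS liver, with no overlap (log2 difference 0.96, SE 0.18, adjusted p = 0.00482). SLC2A1 (GLUT1), which serves basal glucose uptake in many cells, was at 2.05 and 4.38 FPKM and then at 6.68 and 5.89 FPKM. Its control libraries differed more from each other than its LPS libraries did, and its call (0.84, adjusted p = 0.0469) ended without control library 1 (0.43, adjusted p = 0.156) and without LPS library 1 (0.0912). SLC2A3 (GLUT3; log2 difference 0.21, adjusted p = 0.407) and SLC37A4, which carries glucose 6-phosphate into the endoplasmic reticulum (0.17, adjusted p = 0.580), did not pass. SLC37A4 was at 95.9 and 127 FPKM in control and 152 and 102 FPKM in LPS liver, and the groups overlapped. Of the 16 sugar carriers tested, 2 rose, 7 fell and 7 did not pass, against 3 higher and 5 lower at equal medians. As deposited, 12.5% of them rose, where 10.7% of all tested genes did. The inositol carrier SLC2A13 lost its call without control library 1 (adjusted p = 0.0597), control library 2 (0.09999) and LPS library 2 (−0.54, 0.225), and SLC37A3 without control library 1 (0.115), control library 2 (0.111) and LPS library 2 (−0.40, 0.385). Macrophage markers were lower in the same libraries, and their part in the fall of SLC37A2 was not tested.

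Among the metal carriers, the zinc, manganese and iron exporters SLC30A1, SLC30A10 and SLC40A1 and the copper importer SLC31A1 fell, and the magnesium carriers SLC41A1 and SLC41A3 and the zinc carrier SLC30A9 rose. SLC30A1 (ZnT1), the zinc exporter of the plasma membrane, was at 23.4 and 27.8 FPKM in control and 6.39 and 4.86 FPKM in LPS liver (log2 difference −2.01, SE 0.20, limma adjusted p = 3.41e-04). SLC30A10, known in humans as a manganese exporter, was at 31.7 and 26.4 FPKM and then at 6.40 and 7.32 FPKM (−1.93, adjusted p = 2.94e-04). For both genes the LPS libraries lay far below the control libraries. SLC40A1, ferroportin, was at 57.8 and 45.8 FPKM in control and 20.1 and 14.8 FPKM in LPS liver, again without overlap (−1.52, adjusted p = 0.00143). The copper importer SLC31A1 (CTR1) fell by 1.03 on the log2 scale, from 23.1 and 25.4 to 10.9 and 11.8 FPKM. Ferroportin is also abundant in macrophages of other species, and the part of the lower macrophage markers in its fall was not tested.

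SLC41A1, a magnesium carrier of the plasma membrane, was at 40.5 and 25.2 FPKM in control and at 142 and 129 FPKM in LPS liver. Both LPS libraries were over 3 times the higher control library, and the gene rose by 2.05 (SE 0.24, limma adjusted p = 5.81e-04). SLC41A3, a magnesium carrier known from mitochondria, went from 7.65 and 8.81 to 17.1 and 23.2 FPKM (1.18, adjusted p = 0.00392). SLC30A9, a zinc carrier known in humans from mitochondria, rose by 0.88, a call that ended without LPS library 2 (adjusted p = 0.0739). Of the 17 metal carriers tested, 3 rose, 4 fell and 10 did not pass, with the same numbers at equal medians. Thus 17.6% rose and 23.5% fell, beside 10.7% and 31.4% of all tested genes as deposited. None of the 6 zinc importers of the SLC39 family that were tested passed. SLC39A8 was at 10.7 and 7.87 FPKM in control and 10.2 and 8.97 FPKM in LPS liver (log2 difference 0.05, adjusted p = 0.875). The zinc importer SLC39A14 has no entry under that symbol in the expression data, so its level is unknown here.

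Other tested genes of zinc, copper and iron handling rose or did not pass, and 0 fell. Metallothionein MT1, which binds zinc and copper, was at 84.5 and 86.9 FPKM in control and 1144 and 1234 FPKM in LPS liver (log2 difference 3.78, limma adjusted p = 9.88e-06), and MT4 rose by 3.00. ATP7B, the copper pump of the liver, went from 6.14 and 4.45 to 62.7 and 64.2 FPKM (3.37, adjusted p = 2.94e-05). The ferroxidases CP (3.09) and HEPH (2.05), the iron reductases STEAP3 (1.28) and STEAP4 (2.03), and TFRC, which takes up transferrin (1.41), rose. Transferrin itself (TF, 0.97, adjusted p = 0.0178) rose with a call that ended without LPS library 1 (0.0595) and without LPS library 2 (0.0556). In the list of zinc and copper handling 3 of 6 tested genes rose and 0 fell, and in that of iron handling 6 of 10 rose and 0 fell. Over all tested genes 10.7% rose and 31.4% fell.

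**Figure D2:**
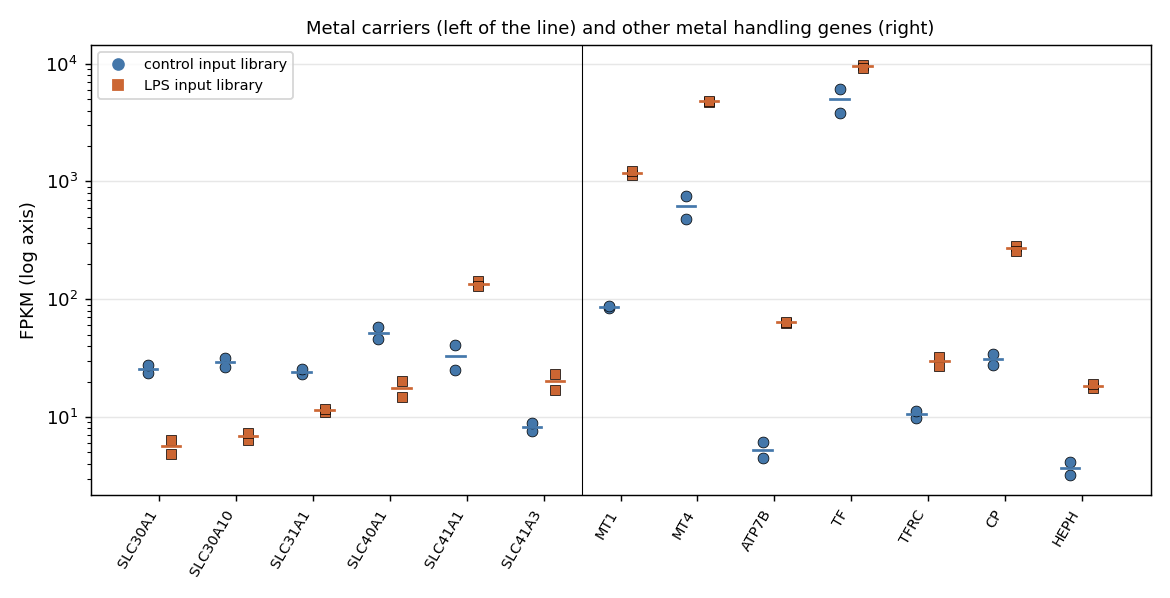
FPKM (log axis) of metal carriers and other metal handling genes in each input library, with circles for control, squares for LPS and short bars for the mean of 2 libraries. The genes shown were picked from those with a call, and the 10 of 17 tested metal carriers without a call are not drawn. SLC30A1, SLC30A10, SLC31A1 and SLC40A1 lie lower after LPS, and the other genes shown lie higher, with MT1 moving from 84.5 and 86.9 to 1144 and 1234 FPKM.

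The vitamin, phosphate, sulfate and citrate carriers held the largest rise of all. SLC46A2, a relative of the folate carrier that is known in mice to carry fragments of bacterial cell wall, was at 0.650 and 0.817 FPKM in control and at 38.8 and 54.0 FPKM in LPS liver. The gene was near the filter in control and well expressed after LPS, with a log2 difference of 4.76 (SE 0.22, limma adjusted p = 1.15e-05). All 3 tested members of the SLC13 family, which take up citrate or dicarboxylates with sodium, rose from low levels. SLC13A2 and SLC13A5, like SLC46A2 and SLC34A2, were under 1 FPKM in both control libraries and passed the filter only through the LPS libraries, so their being called higher is in part set by the filter. SLC13A2 went from 0.254 and 0.0749 to 8.28 and 4.58 FPKM (2.63, adjusted p = 4.54e-04). SLC13A3 went from 1.11 and 2.21 to 5.56 and 6.24 FPKM (1.41, adjusted p = 0.00412), and the citrate carrier SLC13A5 from 0.184 and 0.407 to 2.53 and 3.56 FPKM (1.64, adjusted p = 0.00189). None of these ranges overlapped.

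Phosphate carriers parted. SLC34A2, a sodium-phosphate cotransporter of epithelia, was at 0.306 FPKM and listed at 0 in the control libraries and reached 3.56 and 6.07 FPKM in the LPS libraries (log2 difference 2.31, limma adjusted p = 7.91e-04). SLC20A1, a phosphate carrier of most tissues, was at 56.3 and 78.8 FPKM and then at 37.7 and 36.7 FPKM, which passed (−0.82, adjusted p = 0.0147), but not with medians made equal (0.0964) and without control library 2 (0.0546). SLC23A1, a vitamin C carrier, fell from 29.1 and 22.8 to 9.36 and 9.52 FPKM (−1.36, adjusted p = 0.00149). The reduced folate carrier SLC19A1 stood at 131 and 125 FPKM in control and 79.5 and 81.4 FPKM in LPS liver (−0.66, adjusted p = 0.0142), with no call when medians were equal (0.155) or LPS library 1 was left out (0.0519). The proton-coupled folate carrier SLC46A1 went the other way (0.71, adjusted p = 0.0214), a call that ended without control library 2 (0.0679), LPS library 1 (0.118) and LPS library 2 (0.0847).

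Of the 16 genes tested in the vitamin, phosphate, sulfate and citrate group, 6 rose, 4 fell and 6 did not pass, against 6 higher and 1 lower at equal medians. As deposited, 37.5% rose and 25% fell, where 10.7% and 31.4% of all tested genes did. The rises include SLC46A2, SLC13A2, SLC13A5 and SLC34A2, which passed the filter only through the LPS libraries. The share that rose is thus in part set by the filter. The remaining fallen member was the sulfate carrier SLC26A2, at 5.28 and 4.33 FPKM in control and 3.09 and 2.43 FPKM in LPS liver (limma adjusted p = 0.0489). Its call ended at equal medians (0.212) and with any 1 library left out (0.138 and 0.0543 without control libraries 1 and 2, 0.0967 and 0.312 without LPS libraries 1 and 2).

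**Figure D3:**
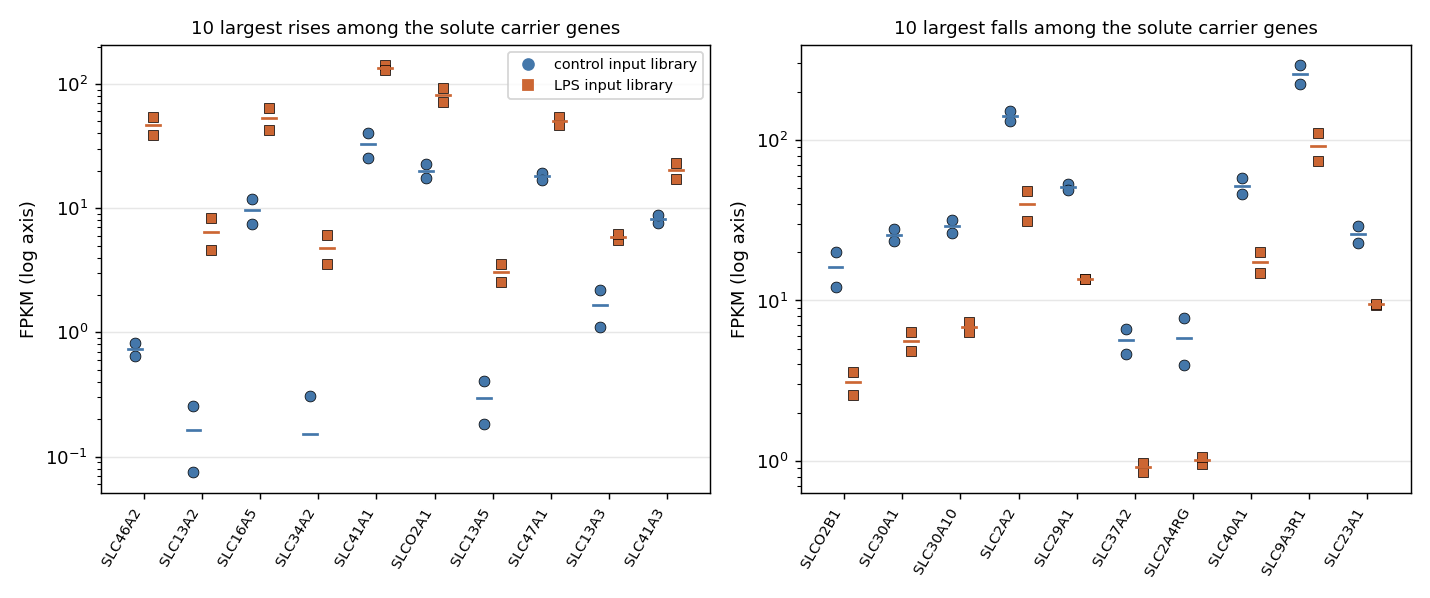
FPKM (log axis) in each input library for the 10 largest rises and the 10 largest falls among called genes whose groups do not overlap, with bars for the mean of 2 libraries. SLC46A2 moves from 0.650 and 0.817 to 38.8 and 54.0 FPKM; the control library in which SLC34A2 is listed at 0 cannot be drawn on the log axis and counts in its mean.

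Carriers of organic anions, cations and bile acids moved in both directions, with 4 up, 5 down and 2 without a call among the 11 tested (4 and 4 at equal medians). These were 36.4% up and 45.5% down as deposited, against 10.7% and 31.4% of all tested genes. SLCO2A1, the prostaglandin transporter, was at 17.4 and 22.7 FPKM in control and at 71.5 and 92.6 FPKM in LPS liver. The gene rose by 1.98 with the groups far apart (SE 0.21, limma adjusted p = 4.08e-04). SLC47A1 (MATE1), which expels organic cations, went from 19.3 and 16.8 to 53.7 and 46.9 FPKM (1.43, adjusted p = 8.73e-04). SLCO4A1, which carries thyroid hormone in other species, rose by 0.84 from 21.3 and 21.2 to 42.1 and 35.7 FPKM (adjusted p = 0.00802). SLC22A23 rose by 0.72, a call that ended without LPS library 1 (adjusted p = 0.0926) and without LPS library 2 (0.0772).

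The falls in this group included carriers of bile acids and other anions. SLCO2B1, an uptake carrier of steroid sulfates, was at 12.1 and 20.04 FPKM in control and 3.59 and 2.59 FPKM in LPS liver (log2 difference −2.03, SE 0.27, limma adjusted p = 0.00108). SLC51A, a subunit of the organic solute transporter that exports bile acids towards the blood, went from 126 and 127 to 46.9 and 51.5 FPKM (−1.34, adjusted p = 7.56e-04). The pairs of SLC51A values were close and did not overlap. SLCO1A2 was at 157 and 109 FPKM and then at 71.4 and 52.0 FPKM (−1.09, adjusted p = 0.00883). SLCO1B3 was at 191 and 180 FPKM in control and 126 and 69.2 FPKM in LPS liver, and the LPS libraries differed widely. Its call (−0.98, adjusted p = 0.0230) was lost when medians were equal (0.0895) and when control library 1 (0.0936), control library 2 (0.0768) or LPS library 2 (−0.55, 0.111) was left out. SLC10A7, a relative of the bile acid carriers, fell from 8.46 and 7.21 to 2.77 and 2.38 FPKM (adjusted p = 0.00225). SLCO1A2 and SLCO1B3 belong to 1 family, and how reads shared by relatives were counted is not given in the sources used here.

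Carriers of nucleotide sugars and nucleosides had falls and no rise, with 10 of 20 tested lower, 0 higher and 10 without a call (7 lower at equal medians). The share lower was 50%, where 31.4% of all tested genes were lower and 10.7% higher. SLC29A1 (ENT1), which carries nucleosides across the plasma membrane, was at 53.4 and 48.5 FPKM in control and at 13.5 FPKM in both LPS libraries. Neither pair spread widely, and the gene fell by 1.83 on the log2 scale (SE 0.17, limma adjusted p = 2.26e-04). SLC29A3 (ENT3), its lysosomal relative, went from 2.30 and 5.90 to 0.868 and 0.960 FPKM (−1.32, adjusted p = 0.0177). Its difference was −0.79 without control library 2, and it had no call when no filter was used (adjusted p = 0.0571). With both LPS libraries under 1 FPKM, SLC29A3 passed the filter only through the control libraries, so its being called lower is in part set by the filter. The SLC35 family, grouped here by symbol, includes carriers of nucleotide sugars and related nucleotides into the Golgi and the endoplasmic reticulum. Not all its members have an established substrate, and 8 of 18 tested were lower. SLC35E2B, whose substrate is not established, went from 30.6 and 32.6 to 13.4 and 11.8 FPKM (−1.26, adjusted p = 0.00137). The GDP-fucose carrier SLC35C1 was at 17.6 and 24.4 FPKM and then at 9.37 and 8.46 FPKM (−1.13, adjusted p = 0.00457). SLC35A1, which carries CMP-sialic acid, did not pass (−0.46, adjusted p = 0.149).

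Among the SLC35 calls, that of SLC35B1, which exchanges ATP and ADP across the endoplasmic reticulum, ended at equal medians (adjusted p = 0.0572). SLC35A3 did not pass with medians made equal (0.0744) or when control library 1 (0.0739) or LPS library 1 (0.0792) was left out. The same 3 settings ended the call of SLC35C2 (0.134, 0.0617 and 0.0651). Without LPS library 2 the calls of SLC35G1 (limma adjusted p = 0.0714) and SLC35G2 (0.0974) ended, that of SLC35G2 also without control library 2 (0.0559).

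Monocarboxylate carriers held 1 rise and 1 fall among the 7 tested, with 5 without a call. Thus 14.3% rose and 14.3% fell, against 10.7% and 31.4% of all tested genes. SLC16A1 (MCT1), which carries lactate, pyruvate and ketone bodies, was at 176 and 184 FPKM in control and at 85.4 and 72.4 FPKM in LPS liver (log2 difference −1.18, SE 0.17, limma adjusted p = 0.00159). SLC16A5 (MCT6), known in humans as a drug carrier, went the other way, from 7.44 and 11.8 to 63.8 and 42.6 FPKM (2.36, SE 0.27, adjusted p = 5.63e-04). Neither gene's groups overlapped. BSG, the membrane partner that SLC16A1 needs, was at 460.1 and 567 FPKM in control and 563 and 494 FPKM in LPS liver (0.05, adjusted p = 0.859).

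Of the remaining groups, that of protons, bicarbonate, chloride and calcium had calls for 8.33% of its tested genes. Peptide and vesicle carriers had calls for 50% and fatty acid and choline carriers for 20%. Over all tested genes 42.1% were called, 10.7% higher and 31.4% lower. Of 12 tested carriers of protons, bicarbonate, chloride and calcium, 0 rose, 1 fell and 11 did not pass. The fallen gene was SLC9A7, a sodium-proton exchanger of the Golgi, from 9.20 and 4.08 to 1.78 and 1.95 FPKM (log2 difference −1.33, limma adjusted p = 0.0141; −0.83 without control library 1), and its call ended when no filter was used (0.0526). SLC8B1, the sodium-calcium exchanger of mitochondria, was the member with the highest level in LPS library 2, at 103 and 120 FPKM in control and 136 and 159 FPKM in LPS liver. It did not pass as deposited (0.40, adjusted p = 0.104) and was higher at equal medians (0.71, adjusted p = 0.0220). Of 4 peptide and vesicle carriers, SLC17A9, which loads ATP into vesicles, rose (0.77, adjusted p = 0.0225), a call that ended without control library 1 (0.0529), control library 2 (0.0657) and LPS library 2 (0.230). SLC17A5, the lysosomal sialic acid exporter, fell (−0.62, adjusted p = 0.0323), but did not pass with medians made equal (0.208) and with any 1 library left out (0.0568 to 0.184). Of 5 fatty acid and choline carriers, only SLC33A1, which brings acetyl-CoA into the endoplasmic reticulum, passed (−0.72, adjusted p = 0.0138), and not at equal medians (0.112) or without LPS library 2 (0.0804).

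Of the 4 tested genes whose proteins bind or regulate carriers, 3 fell (75%, against 31.4% of all tested genes). SLC9A3R1 (NHERF1), a scaffold that holds carriers at the membrane, had the highest control level of all 159 genes, 224 and 293 FPKM, and was at 73.5 and 111 FPKM after LPS (log2 difference −1.496, SE 0.24, limma adjusted p = 0.00249). SLC9A3R2 (NHERF2), a scaffold of the same kind, went from 99.7 and 84.9 to 47.5 and 39.7 FPKM (−1.07, adjusted p = 0.00340). SLC2A4RG, a transcription factor named for the GLUT4 gene, went from 3.95 and 7.77 to 0.964 and 1.06 FPKM (−1.71, adjusted p = 0.00331). The groups of these 3 genes were apart, and SLC4A1AP did not pass (−0.21, adjusted p = 0.452). Over all tested genes 55.8% had both LPS libraries below both control libraries.

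Among other genes of solute transport, 75 names covering pumps, carrier partners and regulators, glucose use, metals, lactate, nucleosides and bicarbonate were listed and 51 were in the table. Of 44 tested, 12 rose, 8 fell and 24 did not pass, against 16 higher and 5 lower at equal medians. Over all tested genes as deposited, 10.7% were called higher and 31.4% lower. PDZK1, a scaffold related to NHERF1, was at 6.10 and 4.94 FPKM in control and 0.131 and 0.490 FPKM in LPS liver, far apart (log2 difference −2.32, limma adjusted p = 3.77e-04). PDZK1 passed the filter only through the control libraries, so its being called lower is in part set by the filter. The carrier-regulating kinases SGK2 (−1.96) and SGK3 (−0.96) fell, and SGK1 (0.19, adjusted p = 0.600) did not pass. HKDC1, a hexokinase-like enzyme, fell by 5.30 from 329 and 266 to 11.9 and 3.42 FPKM. XDH, which makes urate, rose by 2.95 (SE 0.44), from widely spread control values of 45.4 and 14.5 FPKM to 225 and 189 FPKM. The urate carrier SLC2A9 fell by 1.28 on the log2 scale, and a link between these changes was not tested.

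The 47 solute carrier genes below a mean of 1 FPKM were not tested, and 8 of them were listed at 0 in both LPS libraries and 3 in both control libraries. Of these 47 genes, 8 were higher and 16 lower in both LPS libraries than in both control libraries. The shares over all genes below 1 FPKM are not given here, so these counts are a description only. For comparison, the amino acid transporters of the SLC families had 8 higher and 4 lower of 22 tested, and the SLC25 carriers 4 higher and 11 lower of 26. All tested genes had 10.7% higher and 31.4% lower. The differences between these families were not tested.

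m6A peaks were taken from the authors' lists, 1 for each treatment, in which each peak has a fold enrichment, the authors' ratio of IP over input. With 1 list per treatment, differences between lists have no replicate check. In control liver 54 of the 112 tested genes carried a peak (48.2%, against 50.5% of all tested genes), and in LPS liver 40 did (35.7%, against 41% of all). Of the 159 genes, 37 had a peak in both lists, 17 in the control list only and 4 in the LPS list only, of which SLCO3A1 was below the filter. Peaks in the control list only were carried by 15.2% of the tested solute carrier genes and 12.8% of all tested genes, and peaks in the LPS list only by 2.68% and 3.26%.

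The control list held 77 peaks of solute carrier genes and the LPS list 53. By the 1 place that the lists name for each peak, 46 and 33 lay in 3′ UTRs. These were 59.7% and 62.3%, where all peaks of the lists had 45.2% and 42.2%. Another 27 and 16 were named as exons and 4 and 4 as 5′ UTRs. The named place can differ between overlapping peaks. Those of SLC30A6, SLC30A10 and SLC39A9 were named 3′ UTR in control and exon after LPS. The median enrichment was 4.66-fold in control and 3.85-fold in LPS liver, against 5.51-fold and 4.99-fold for all peaks. High values in control included those of SLC35F6 in the 3′ UTR (56.1-fold), SLC29A1 in the 3′ UTR (55.0-fold), SLC2A4RG in exon 7 of 9 (45.8-fold) and SLC16A1 in the 3′ UTR (23.1-fold). After LPS the highest values were those of SLC35F6 (38.4-fold), SLC16A1 (15.6-fold), SLC47A1 in exon 2 of 11 (13.8-fold), SLC9A3R2 (13.2-fold) and SLC17A9 (12.3-fold). SLC35F6, a relative of the nucleotide sugar carriers, thus had a high peak in both lists, at chr3:104835719-104836101 in control and chr3:104835719-104836043 after LPS on the minus strand. The genome build of these positions is not given in the sources used here. Its expression was 34.4 and 40.1 FPKM in control and 26.3 and 30.4 FPKM after LPS (log2 difference −0.38, limma adjusted p = 0.127).

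The 2 lists shared 44 peaks each of solute carrier genes, in 45 overlapping pairs over 37 genes, where shared means an overlap of at least 1 base on the same gene and strand. Enrichment was lower after LPS in 35 pairs and higher in 10, or 77.8% lower, against 68.4% of 5364 pairs over all genes. The median log2 ratio of LPS to control enrichment was −0.35 in solute carrier genes and −0.27 over all pairs. The largest drop was that of the 3′ UTR peak of SLC9A7, from 18.2-fold to 3.63-fold, and its covered length went from 390 to 90 bases. SLCO4A1 (3.92 to 1.63-fold), SLC30A6 (6.41 to 2.75-fold), SLC9A3R1 (9.80 to 4.34-fold) and SLC39A9 (4.66 to 2.13-fold) followed. The SLC9A3R1 peak covered 1601 exonic bases in control and overlapped 2 LPS peaks, the one of 4.34-fold over 298 bases and another of 9.04-fold over 771 bases. SLC9A7 and SLC9A3R1 fell in expression, SLCO4A1 rose, and SLC39A9 (log2 difference −0.51, limma adjusted p = 0.0546) did not pass.

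Higher enrichment after LPS was found for SLC4A1AP in exon 9 of 14 (3.41 to 6.31-fold), SLC17A9 (9.82 to 12.3-fold), SLC35D1 (4.88 to 5.75-fold) and SLC26A5 (2.98 to 3.46-fold). SLC41A1, whose expression rose, had most of its peaks at the start of the gene. In control, peaks of 4.57-fold and 9.39-fold lay in the 5′ UTR, 60 and 448 bases from the start site, and 1 of 2.34-fold in exon 1 of 10. After LPS, the first stood at 3.44-fold and a single wider peak of 5.19-fold covered the other two, and a 3′ UTR peak of 2.83-fold was in the LPS list only.

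**Figure D4:**
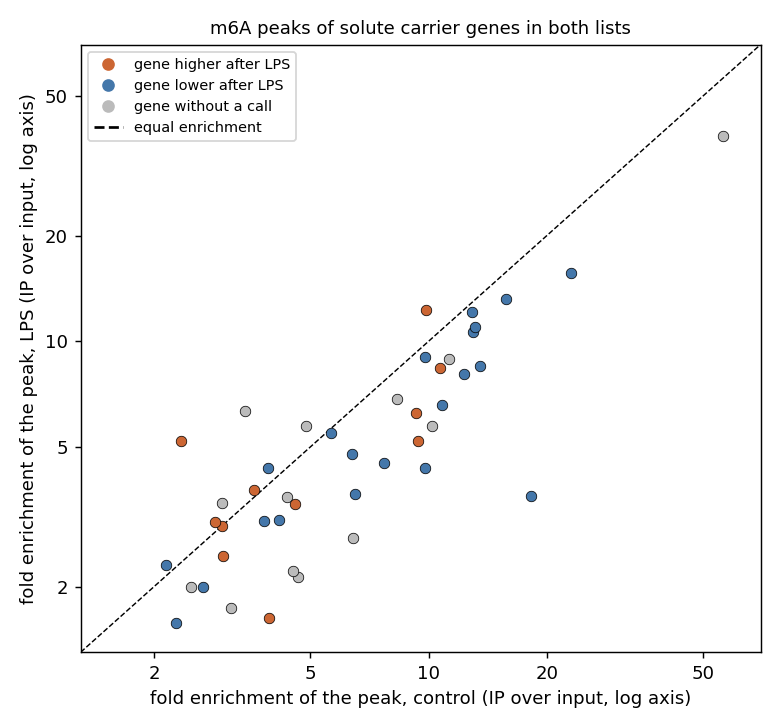
Fold enrichment (IP over input, log axes) of the 45 pairs of overlapping peaks in solute carrier genes, control against LPS, coloured by the expression call of the gene. Most points (35 of 45) lie below the dashed line of equal enrichment, and the point farthest below it is SLC9A7 (18.2 and 3.63-fold).

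Genes with peaks in 1 list were compared with their expression. Of the 17 genes with a peak in the control list only, 0 rose, 7 fell and 10 did not pass, and their median log2 difference was −0.61. Among all tested genes with such peaks, 52.3% fell and 1.32% rose, against 41.2% and 0 here. The fallen genes were SLC29A1, SLC29A3, SLC2A2, SLC30A1, SLC5A3, SLC26A2 and SLC2A4RG. Of these, SLC29A3 passed the filter only through the control libraries, so its being called lower is in part set by the filter. The peak of SLC29A1 had 55.0-fold enrichment, and that of SLC2A2 1.78-fold in exon 11 of 11. SLC30A1 had peaks of 1.91 and 3.25-fold in exon 3 of 3 in control only, and SLC5A3 peaks of 9.13 and 9.89-fold in its single exon.

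The genes with a peak in the LPS list only were SLC41A3 (1.91-fold, 3′ UTR), SLC46A1 (2.18-fold, exon 2 of 5), SLC46A2 (2.63-fold, exon 1 of 4, at chrZ:65674249-65674396) and SLCO3A1 (7.24-fold, 3′ UTR). The 3 that were tested all rose, where 47.6% of tested genes with such peaks rose over the whole table. SLC46A2 passed the filter only through the LPS libraries and SLCO3A1 was below the filter, so the count of 3 is in part set by the filter. SLCO3A1 was at 0.482 and 0.401 FPKM in control and 0.643 and 0.574 FPKM in LPS liver. Of the 37 genes with peaks in both lists, 7 rose and 18 fell. These were 18.9% and 48.6%, against 12.4% and 29.4% of all tested genes with such peaks. The median level was 28.3 FPKM for genes with peaks in both lists and 6.23 FPKM for those in the control list only, and the part of level in peak detection was not tested.

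A peak in at least 1 list was carried by 50.9% of the tested solute carrier genes and 53.8% of all tested genes. Some of the genes with the largest changes had a peak and others had none. SLC13A2, SLC13A3, SLC13A5 and SLC34A2, which rose, and SLC40A1, SLC37A2 and SLC23A1, which fell, were among the 55 tested genes without a peak.

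**Figure D5:**
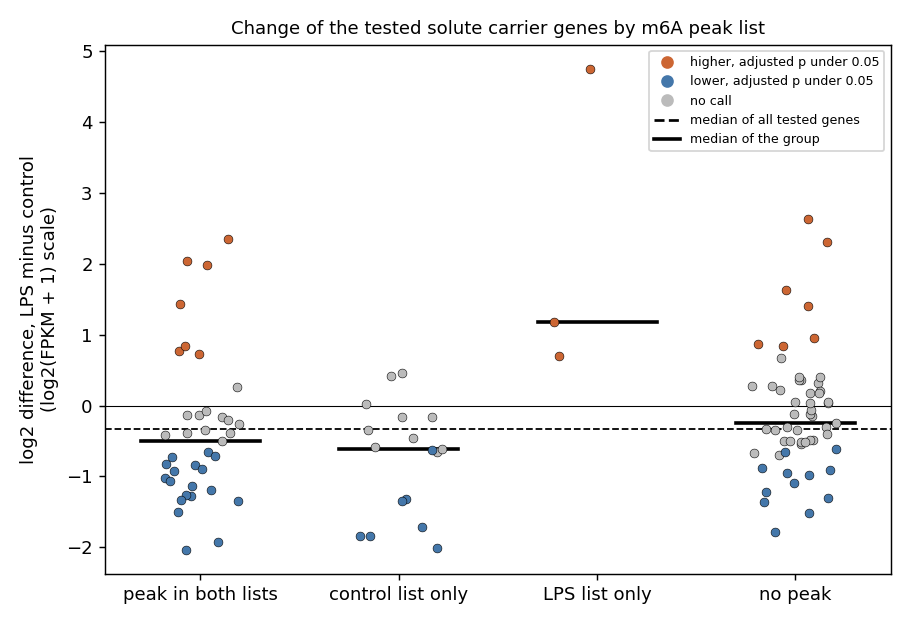
Log2 difference between LPS and control liver for the tested solute carrier genes by the list in which they have an m6A peak, coloured by call, with bars for medians and the dashed line at the median of all tested genes (−0.34). The 3 tested genes with a peak in the LPS list only lie above 0, and the 17 with a peak in the control list only have a median of −0.61.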

How the data were processed

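Per the labels' protocols, second strands carried dUTP and reads were paired. Per the submitters' processing notes, the tools were ChIPseeker, HISAT2, HOMER and StringTie, with neither role nor version stated. Which build, peak caller and filters were used is not given in the sources used here. Deposited by the authors were FPKM values for each input library and, for each treatment, a peak list. Each deposited peak has the authors' fold enrichment, the ratio of IP over input, and their p-value. The columns' treatment mark was read as LPS, since no other treatment is named. The lists hold 7814 and 5939 entries, of which 1 in each repeats another and was dropped, leaving 7813 and 5938.

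The limma package (3.58.1, R 4.3.3) was fitted to log2(FPKM + 1) of genes averaging 1 FPKM or more, 2 libraries against 2, letting the prior variance follow the level. The fit was tested on simulated data. Peaks were handled in Python 3.11.15 with numpy 2.4.6 and pandas 2.3.3. Of 159 symbols, 157 were found in RefSeq's gene table for GRCg7b, used for names only. No sequence table or genome was used here.

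The members, groups and lists were chosen with earlier results of these data known. Named genes were the 10 largest rises and falls among called genes without overlap, up to 3 called members per group and direction (all where 5 or fewer), and a set of well-known carriers. Of that set, SLC39A14, SLC11A2, SLC10A1, SLC10A2, SLCO1B1, SLCO1C1, SLC22A7 and SLC5A1 have no entry under these symbols in the expression data. Other named genes, and the metal genes plotted, were picked with their values in view. Named peaks were the 5 of highest enrichment in each list, the 5 shared pairs that differed most in each direction, and those of named genes. Alternatives were another pseudocount, filter, scaling, variance model and minimum change, the replicate number as a block, leaving out each library, and other peak thresholds and overlaps. Results of some genes and peaks that meet these rules are not reported here.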

Additional observations from a re-analysis of the deposited data

How the results depend on the processing

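Calls of at least 2-fold were fewer: 10 solute carrier genes higher and 23 lower, 674 and 1365 over all genes, and 4 lower among other genes of solute transport. At equal medians 1594 of all genes and 5 of those other genes were lower. A pseudocount of 0.1 FPKM, a filter at 0.1 FPKM, no filter, no variance trend and equal medians gave 16 to 19 solute carrier genes higher and 26 to 41 lower. Fits with 1 library left out assume that the lone library varies like the other group, so calls kept in them are not a check of robustness. With the replicate number as a block, 18 solute carrier genes were higher and 38 lower (1071 and 3150 over all genes, 12 and 9 of the other transport genes), and 0 of 43 named calls ended. Deviations of same-numbered libraries from their group means had a correlation of 0.0292 across 9484 genes. This cannot settle whether same-numbered libraries were handled together, since a small effect or one on few genes would not show. Of the 43 named calls, 6 ended at equal medians, 7 without a filter (SLC17A5, SLC17A9, SLC26A2, SLC29A3, SLC2A1, SLC9A7 and SLCO1B3), 12 when at least 2-fold was required and 5 to 7 with a library left out, and 0 reversed in any of these settings. Peaks of at least 2-fold enrichment left 53 and 39 genes with a peak in the control and LPS lists and 40 shared peaks in each list, and peak p-values under 1e-10 left 52, 38 and 42. Other overlaps gave 44 shared peaks. With 2 libraries a group and unknown depth, small changes of low genes may be missed.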

Other observations

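With the filter lowered to a mean of 0.1 FPKM, 27 of the 47 solute carrier genes below 1 FPKM could be tested, and 1 was higher and 6 lower (limma). These counts too are a description only, as the shares over all genes at such levels are not given here. SLC5A10, a sugar carrier known from kidney, went from 0.180 and 0.0738 to 0.686 and 0.720 FPKM (log2 difference 0.60, limma adjusted p = 0.0273). SLC2A12 (GLUT12) was at 0.863 and 1.20 FPKM in control and 0.0332 and 0.0152 FPKM in LPS liver (−0.98, adjusted p = 0.00663). SLC22A16, a carnitine carrier known in humans, went from 1.26 and 1.75 to 0.143 and 0.178 FPKM (−1.11, adjusted p = 0.00597). The others were SLC16A9, SLC35F2, SLC46A3 and SLC5A9, and SLC5A9 was listed at 0 in LPS library 1. SLC2A12 and SLC5A9 were under 0.1 FPKM in both LPS libraries and passed the lowered filter only through the control libraries. Their being called lower is thus in part set by the filter.

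SLC26A5 (prestin), known in mammals as the motor protein of cochlear hair cells, was at 65.8 and 57.0 FPKM in control and 58.4 and 53.5 FPKM in LPS liver, with a 3′ UTR peak of 2.98 and 3.46-fold. The thiamine carrier SLC19A2 was at 14.0 FPKM in control library 1, against 2.78 in control library 2 and 3.62 and 3.67 in the LPS libraries.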
